A study of Mus musculus with 3 samples.

Results

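A set of 10 genes of mitochondrial fusion, fission and biogenesis was examined in activated mouse T cells, taken by symbol from the table of 17796 genes, and all 10 had a row. Fusion was represented by Mfn1, Mfn2 and Opa1, fission by Dnm1l, Fis1 and Mff, and biogenesis with mitochondrial DNA copying by Tfam, Ppargc1b, Nrf1 and Polg. The cells were spleen T cells of C57BL/6 mice, held for 3 days in medium with 10% serum on plates coated with antibodies to CD3 (2 ug/ml) and CD28 (5 ug/ml), with interleukin 2 at 100 IU/ml. There were 3 libraries, 1 per group, made from polyadenylated RNA. The aged fumarate library (Old + Fumarate) came from mice given as 24 months old that received 10 mg/kg of fumarate, a tricarboxylic acid cycle intermediate, 3 times a week for 2 months. The aged vehicle library (Old) came from mice of the same stated age on vehicle, and the young library (Young) from mice aged 2 months, also marked as vehicle. The labels do not say whether the stated age was that at the start or the end of treatment, how many mice were pooled, or how the T cells were isolated. With 1 library a group, no difference has a replicate check and no p-value is given.

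Mitochondria join and divide continuously. Mitofusins tether and merge outer membranes, OPA1 merges inner membranes and shapes cristae, and the dynamin DRP1 (gene Dnm1l), recruited by outer membrane adaptors, constricts the organelle until it divides. New mitochondrial mass needs nuclear transcription programmes driven by PGC-1 family coactivators and nuclear respiratory factors, and copies of mitochondrial DNA, which TFAM packages and POLG replicates. T cells enlarge and divide their mitochondria after activation, while memory T cells are known for fused networks.

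Levels are CPM, reads per gene scaled to a total of 1000000 per library, at estimated depths of 13.9 M reads for aged fumarate, 17.3 M for aged vehicle and 41.0 M for young. Markers of T cell identity were all detected, with a summed level over 18 genes of 6268 CPM in aged fumarate, 5245 CPM in aged vehicle and 6048 CPM in young cells. Thy1 alone made up 1453, 988 and 752 CPM of these sums, in the same order. Its log2 ratio of CPM + 1 for aged fumarate over young was 0.95, against a median of −0.16 for the list. Ptprc made up a further 1004, 880.9 and 1190 CPM. The same sums set the T cell identity scaling used below, which therefore leans on Thy1 and Ptprc. Markers of other cells moved with the libraries. The 14 erythroid and platelet markers summed to 180.3, 1410 and 12.7 CPM in aged fumarate, aged vehicle and young cells, with Hba-a2 and Alas2 listed at 0 in aged fumarate and none at 0 in the other libraries. The 10 listed basophil and mast cell markers summed to 498, 802 and 247 CPM in the same order, of which Il4ra, also a T cell gene, made up 416, 348 and 242 CPM. The 11 listed macrophage and monocyte markers summed to 121, 153.5 and 126.5 CPM, with Csf1r and Adgre1 at 0 in aged fumarate and Csf1r and Fcgr1 at 0 in young. Of these sums Ctss alone made up 53.3, 50.45 and 88.1 CPM. Gene by gene, the 9 with a mean of at least 1 CPM differed more than the sums. Their median log2 ratio of CPM + 1 was −1.28 for aged fumarate over aged vehicle, 2.15 for aged vehicle over young and 0.55 for aged fumarate over young. The 11 listed B cell markers summed to 20.3, 18.6 and 7.98 CPM, with none at 0. The part of these other cells in the differences described here was not tested, and in bulk RNA a change in the share of a cell type cannot be told apart from a change in RNA per cell.

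None of the 10 genes lay past 1.5-fold in any of the 3 comparisons, measured as the log2 ratio of CPM + 1. For aged fumarate over aged vehicle, 2.10% of all 17796 genes were past that limit upward and 11.5% downward. For aged vehicle over young the shares were 16.1% and 5.91%, and for aged fumarate over young 8.89% and 6.00%. Among the 9624 genes with a mean of at least 10 CPM, which include all members but Ppargc1b, 8.00%, 17.4% and 12.9% were past it in either direction in these comparisons. The members' median log2 ratios were −0.045 for aged fumarate over aged vehicle, 0.024 for aged vehicle over young and 0.044 for aged fumarate over young, beside −0.035, 0.040 and 0.0027 for all genes. Scaling to the T cell identity genes, which moved the median of all genes by −0.21 for aged fumarate over aged vehicle and by 0.16 for aged vehicle over young, put 2 members past the limit. These were Mfn1, higher in aged vehicle over young (0.61), and Ppargc1b, lower in aged fumarate over young (−0.60). At that scaling 21.5% of all genes were past the limit upward in aged vehicle over young and 6.75% downward in aged fumarate over young, so 1 member of 10 in each lies near or below the background.

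**Figure D1:**
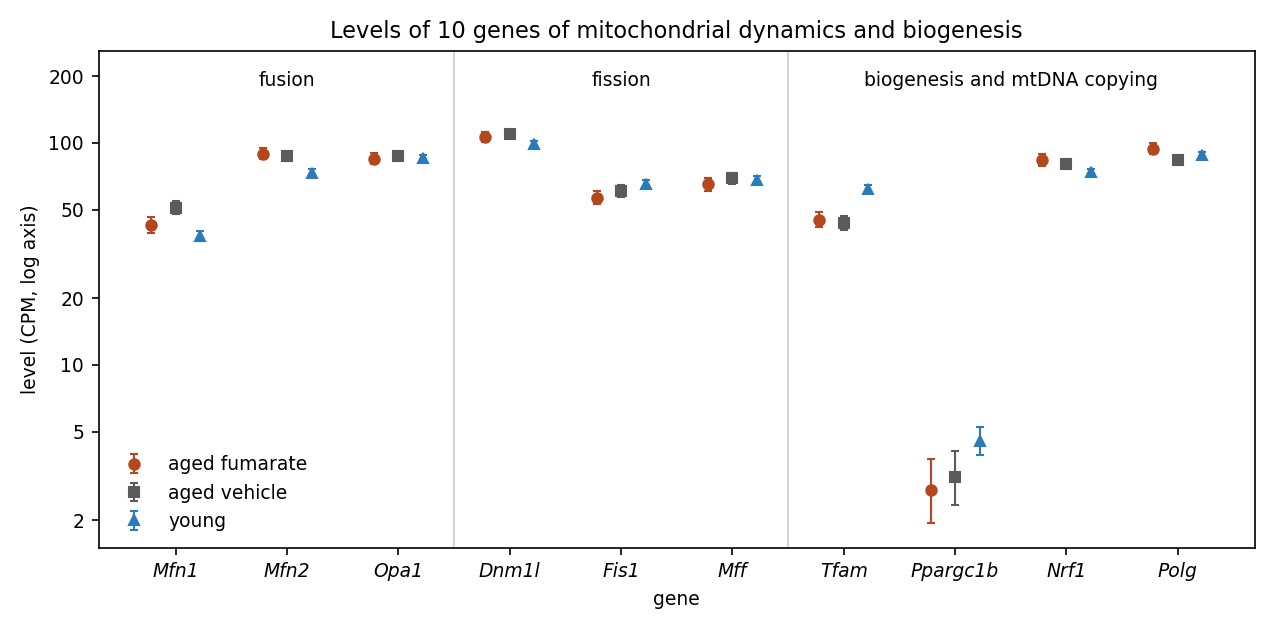
Level of each gene in CPM (log axis) in the aged fumarate, aged vehicle and young libraries (1 library each), grouped by role; bars are exact 95% Poisson intervals on estimated reads, which cover counting error only. Most genes sit between 38.2 and 109.8 CPM in all libraries, Ppargc1b between 2.74 and 4.54 CPM, and Tfam is highest in the young library.

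The highest level over the 3 libraries was 1.03 to 1.65 times the lowest, gene by gene. For the 9624 genes with a mean of at least 10 CPM this quotient had a median of 1.25 and quartiles of 1.13 and 1.46. Opa1 (1.03), Mff (1.07), Dnm1l (1.11), Nrf1 (1.13), Polg (1.13), Fis1 (1.15) and Mfn2 (1.22) lay below that median. Mfn1 (1.34), Tfam (1.42) and Ppargc1b (1.65) lay above it, and the differences described below are mostly those of these 3 genes. Ppargc1b is below 10 CPM and so outside the set that gave the median, and counting error widens its quotient.

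The promoters of Tfam, Mfn1 and Opa1 are printed because Tfam and Mfn1 differed most between aged vehicle and young cells among the well-expressed members, in opposite directions, while Opa1 differed least over the 3 libraries. Each is the RefSeq window of 250 bases before to 50 bases after a transcript start, read 5′ to 3′ on the gene's strand in GRCm38.p6. Tfam lies on the minus strand at chr10:71237995-71238294, Mfn1 on the plus strand at chr3:32529232-32529531 and Opa1 on the plus strand at chr16:29579084-29579383. Capitals mark the ETS core CCGGAAGT, the motif read by GABP among other ETS factors, in Tfam and Mfn1, and the core CGCATGCG of the NRF1 motif in Opa1.
Tfam: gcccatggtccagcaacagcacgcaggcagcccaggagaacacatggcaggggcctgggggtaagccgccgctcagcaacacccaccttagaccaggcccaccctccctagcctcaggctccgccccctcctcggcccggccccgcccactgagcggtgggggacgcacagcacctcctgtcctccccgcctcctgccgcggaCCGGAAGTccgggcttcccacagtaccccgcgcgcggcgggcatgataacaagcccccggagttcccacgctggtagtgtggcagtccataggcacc
Mfn1: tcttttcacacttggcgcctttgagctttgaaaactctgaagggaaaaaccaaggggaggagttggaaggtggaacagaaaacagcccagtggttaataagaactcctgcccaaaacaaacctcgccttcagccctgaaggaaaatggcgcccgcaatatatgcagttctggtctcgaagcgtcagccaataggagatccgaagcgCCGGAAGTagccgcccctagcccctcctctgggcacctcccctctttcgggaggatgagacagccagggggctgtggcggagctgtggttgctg
Opa1: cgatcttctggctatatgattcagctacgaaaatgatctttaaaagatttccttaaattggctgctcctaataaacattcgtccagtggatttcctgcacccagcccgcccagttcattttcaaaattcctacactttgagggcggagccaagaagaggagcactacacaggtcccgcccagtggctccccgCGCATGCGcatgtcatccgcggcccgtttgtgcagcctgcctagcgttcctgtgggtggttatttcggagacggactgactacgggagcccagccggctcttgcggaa
The ETS core began 47 bases before the start in Tfam and 44 bases before it in Mfn1, and the NRF1 motif began 58 bases before the start in Opa1. In Tfam this RefSeq start lies inside the gene's span in GENCODE M21 (chr10:71225464-71238280), and the ETS core lies inside that span too.

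RefSeq windows were found for 9 of the 10 genes (15 windows, since some genes have several starts). Searched on both strands, CCGGAAGT stood in 5 windows of 4 genes (Tfam, Mfn1, Polg and Fis1), in 3.89% of all 32851 windows and in 9.78% of the 9106 windows of genes with a mean of at least 10 CPM. CGCATGCG stood in 1 member window, that of Opa1, against 1.87% and 4.43%, and the E-box CACGTG, read by MYC among others, in 0 member windows, against 7.15% and 10.5%. The motifs do not share letters where they were found. These 3 motifs were kept after other spellings of the ETS and NRF1 motifs and a nuclear receptor motif had also been searched in the member windows, so their matches are a selection. The 4 genes with the ETS core went different ways in aged vehicle over young cells, with log2 ratios of −0.50 for Tfam, 0.41 for Mfn1, −0.076 for Polg and −0.11 for Fis1 (0.13 for Polg and 0.096 for Fis1 with scaling to the T cell identity genes). A match is a description of letters and not evidence of binding. Gabpa, the DNA-binding subunit of GABP, was at 87.0 CPM in aged fumarate, 74.1 CPM in aged vehicle and 83.1 CPM in young cells.

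Among the fusion genes, both mitofusins were higher in aged vehicle than in young cells, while the differences in Opa1 lay within counting error at the CPM scaling. Mfn1, an outer membrane GTPase that tethers neighbouring mitochondria, was at 42.7 CPM in aged fumarate, 51.1 CPM in aged vehicle and 38.2 CPM in young cells. Aged vehicle stood highest, and the counting intervals of its level (47.8 to 54.6 CPM) did not meet those of aged fumarate (39.4 to 46.3 CPM) or young (36.3 to 40.1 CPM). The log2 ratio of Mfn1 was −0.25 for aged fumarate over aged vehicle, with a 95% counting interval of −0.41 to −0.11, and 0.41 for aged vehicle over young (0.30 to 0.54). It was 0.16 for aged fumarate over young (0.024 to 0.30). Intervals here are exact Clopper-Pearson intervals for the plain CPM ratio, without the added 1, and hold no spread between mice.

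Mfn2, the second mitofusin, which also links mitochondria to the endoplasmic reticulum, was at 89.4 CPM in aged fumarate, 86.9 CPM in aged vehicle and 73.3 CPM in young cells. Both aged libraries were above the young one, with log2 ratios of 0.28 for aged fumarate (0.19 to 0.38) and 0.24 for aged vehicle (0.16 to 0.34). Between the aged libraries the ratio was 0.040 at the CPM scaling, with an interval that included no difference (−0.069 to 0.15), and −0.21 with T cell identity scaling. Opa1 was at 84.96, 87.2 and 85.5 CPM in aged fumarate, aged vehicle and young cells. Its intervals included no difference in all 3 comparisons, with −0.15 to 0.073 for aged fumarate over aged vehicle and −0.059 to 0.12 for aged vehicle over young. With T cell identity scaling the log2 ratios of Opa1 in these comparisons were −0.29 and 0.23, outside those intervals.

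**Figure D2:**
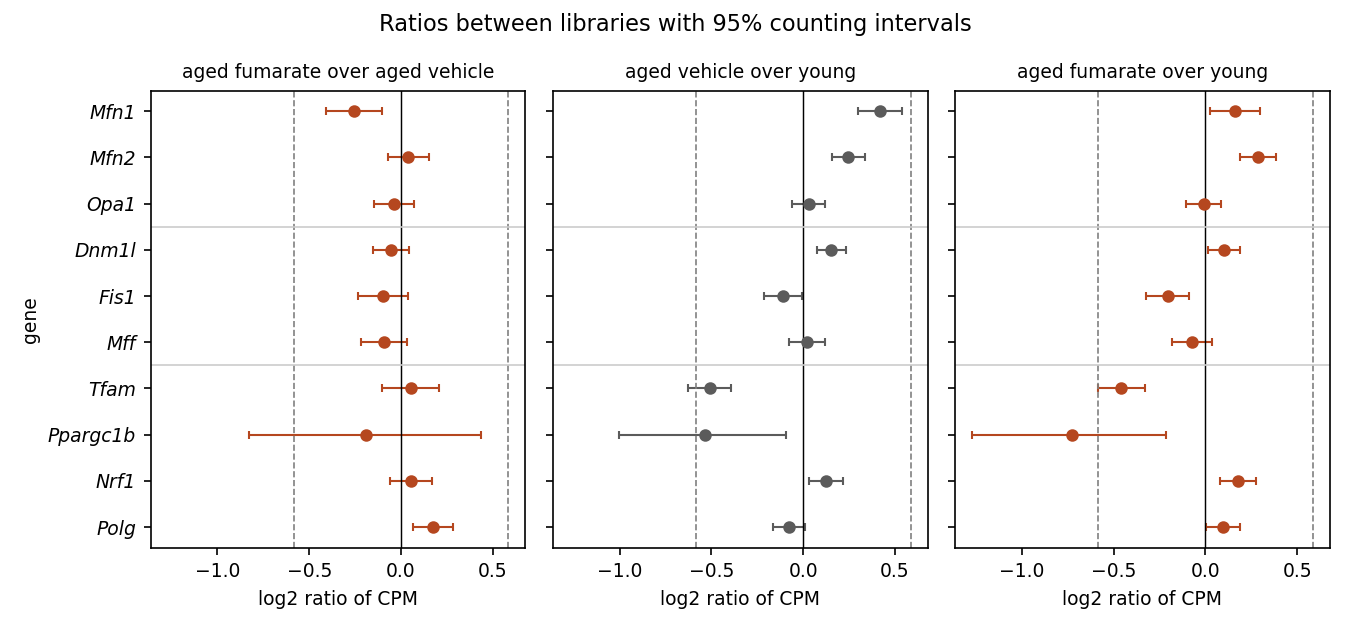
Log2 ratio of CPM of each gene for aged fumarate over aged vehicle, aged vehicle over young and aged fumarate over young; points are plain ratios of 1 library to 1 library, bars 95% Clopper-Pearson counting intervals, dashed lines 1.5-fold. Mfn1 and Tfam stand farthest from 0 among well-expressed genes in aged vehicle over young, on opposite sides, and Ppargc1b passes the dashed line as a plain ratio in aged fumarate over young (−0.73).

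At the CPM scaling the fission genes differed little. Dnm1l, the dynamin-related GTPase that cuts mitochondria, was at 105.8 CPM in aged fumarate, 109.8 CPM in aged vehicle and 98.8 CPM in young cells. Its log2 ratio was −0.052 for aged fumarate over aged vehicle (−0.15 to 0.046) and 0.15 for aged vehicle over young (0.073 to 0.23). The latter was 0.067 with upper-quartile and 0.355 with T cell identity scaling, both outside that interval. Fis1, an outer membrane protein that binds fission factors, was at 56.7, 60.7 and 65.4 CPM in aged fumarate, aged vehicle and young cells. It was the fission gene with the lowest ratio to young, −0.20 for aged fumarate (−0.32 to −0.091) and −0.11 for aged vehicle (−0.21 to −0.0047), or −0.25 and 0.096 with T cell identity scaling. Mff, the main DRP1 adaptor, was at 65.0, 69.2 and 68.3 CPM in the same order, and its intervals included no difference in all 3 comparisons at the CPM scaling. With T cell identity scaling the ratio of Mff in aged vehicle over young was 0.22. Between the aged libraries, the 3 fission genes had ratios of −0.052, −0.096 and −0.090, each with an interval that included no difference. With T cell identity scaling the same ratios were −0.31, −0.35 and −0.34, so whether the fission genes differed between the aged libraries depends on the scaling. The exons of Dnm1l share 4.67% of their bases with Gm49521 on the other strand, which was at 0.348, 0.633 and 0.365 CPM in aged fumarate, aged vehicle and young cells. Those of Mff share 2.0% with C430014B12Rik on the other strand, at 0.8732, 0.4311 and 0.4475 CPM in the same order.

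Of the 4 biogenesis genes, 2 were lower in both aged libraries than in young cells. Tfam, which packages mitochondrial DNA and starts its transcription (chr10:71225464-71238280, mm10), was at 45.1 CPM in aged fumarate, 43.5 CPM in aged vehicle and 61.9 CPM in young cells. The aged libraries differed by less than counting error at the CPM scaling and were both below the young one, at 72.9% of it with fumarate (66.6% to 79.6%) and 70.3% with vehicle (64.7% to 76.2%). The log2 ratio to young was −0.45 for aged fumarate and −0.50 for aged vehicle, and with T cell identity scaling −0.50 and −0.30. For aged fumarate over aged vehicle it was 0.051 (−0.10 to 0.21), or −0.20 with T cell identity scaling.

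Ppargc1b, which encodes the coactivator PGC-1 beta, was at 2.74 CPM in aged fumarate, 3.13 CPM in aged vehicle and 4.54 CPM in young cells. These levels rest on about 38, 54 and 186 reads. Both aged libraries were below the young one, at 60.4% of it with fumarate (41.5% to 86.1%) and 68.9% with vehicle (49.9% to 93.8%). On the CPM + 1 scale the log2 ratios to young were −0.57 for aged fumarate and −0.42 for aged vehicle, and the added 1 understates the change of a gene this low. With 0.1 CPM added instead, the ratio of aged fumarate over young was −0.71, past 1.5-fold, and with 5 CPM −0.30. The interval for aged fumarate over aged vehicle, −0.83 to 0.44, was too wide to give a direction.

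The other 2 biogenesis genes did not follow Tfam. Nrf1, nuclear respiratory factor 1, an activator of many respiratory chain genes, was at 83.7 CPM in aged fumarate, 80.7 CPM in aged vehicle and 74.0 CPM in young cells. Its ratios to young were 0.18 for aged fumarate (0.080 to 0.28) and 0.12 for aged vehicle (0.033 to 0.22). Polg, the catalytic subunit of the mitochondrial DNA polymerase, was at 94.3, 83.5 and 88.1 CPM in aged fumarate, aged vehicle and young cells. It was highest with fumarate, with a ratio over aged vehicle of 0.17 (0.065 to 0.28) that was −0.081 with scaling to the T cell identity genes. The exons of Polg share 8.57% of their bases with Fanci, a DNA repair gene on the other strand, which was at 28.9, 22.7 and 31.0 CPM in the same order. Whether strand was used in counting is not stated, so reads in the shared bases cannot be told apart.

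Counting intervals excluded no difference for 2 of the 10 genes (Mfn1 and Polg) in aged fumarate over aged vehicle, for 7 in aged vehicle over young and for 8 in aged fumarate over young. Among genes with a mean of at least 10 CPM the shares were 49.2%, 72.9% and 64.7%, so the last 2 counts lie near the background. Those 2 counts include Ppargc1b, which is outside that set. At a limit of 1.3-fold, chosen after the values were seen, 0 members passed in aged fumarate over aged vehicle, against 6.32% of all genes upward and 17.8% downward. In aged vehicle over young, Mfn1 passed upward and Tfam and Ppargc1b downward, against 23.4% and 12.9% of all genes. In aged fumarate over young, 0 passed upward and Tfam and Ppargc1b downward, against 15.2% and 12.6%.

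Ratios between members inside a library do not depend on how libraries are scaled to each other. They can still differ with the mix of cells, whose part was not tested. No such ratios were computed for other genes, so they have no background here. The Mfn2 to Mfn1 ratio of CPM was 2.09 in aged fumarate (1.90 to 2.31), 1.70 in aged vehicle (1.56 to 1.85) and 1.92 in young cells (1.81 to 2.04). It was lowest in aged vehicle, whose interval did not meet that of aged fumarate but met that of young. The Opa1 to Dnm1l ratio was 0.803 (0.743 to 0.867), 0.795 (0.742 to 0.851) and 0.866 (0.827 to 0.906) in aged fumarate, aged vehicle and young cells, and all intervals overlapped. Intervals that meet do not show that ratios are equal, and no interval was computed for the difference between libraries. The summed fusion genes stood to the summed fission genes as 217 to 227.5 CPM in aged fumarate, 225 to 239.7 CPM in aged vehicle and 197.0 to 232.5 CPM in young cells. These ratios were 0.954 (0.908 to 1.0), 0.940 (0.899 to 0.982) and 0.847 (0.822 to 0.873), so the young library stood below both aged ones, whose intervals overlapped each other.

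**Figure D3:**
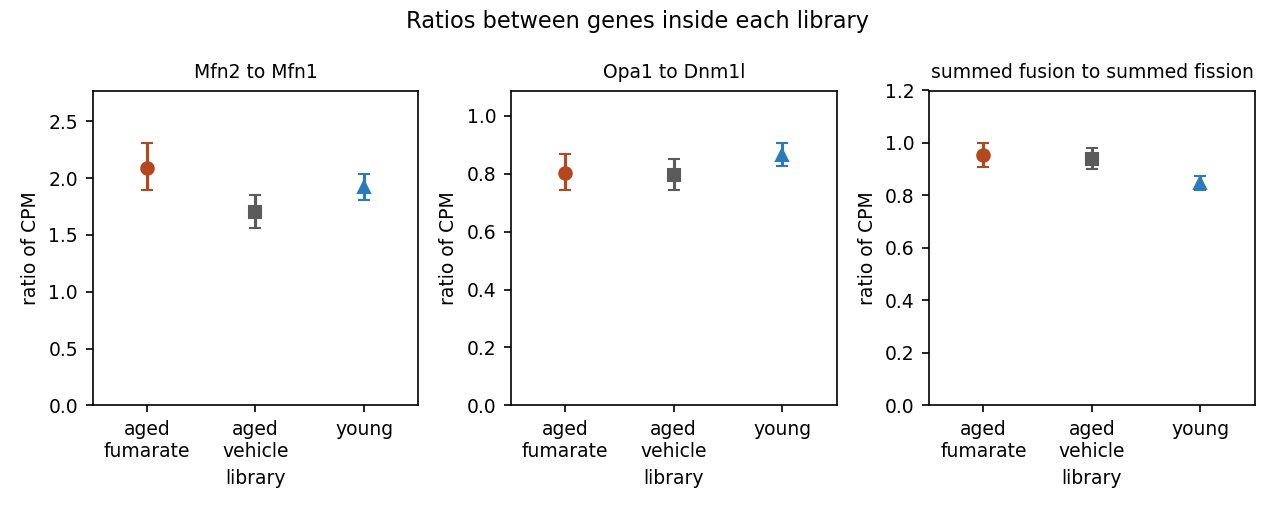
Ratio of CPM between genes in the aged fumarate, aged vehicle and young libraries (1 library each), with 95% Clopper-Pearson counting intervals; axes start at 0. The summed fusion to fission ratio is 0.954 and 0.940 in the aged fumarate and aged vehicle libraries and 0.847 in the young one.

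Levels of different genes can be compared only per length, so CPM was divided by the kilobases of exon in GENCODE M21. On this scale Fis1 was first in every library (33.1, 35.4 and 38.2 CPM per kb in aged fumarate, aged vehicle and young cells), followed by Dnm1l (20.3, 21.1 and 19.0) and Mfn2 (17.2, 16.7 and 14.1). Ppargc1b was last in every library (0.687, 0.784 and 1.14 CPM per kb). Tfam and Opa1 changed places, with Opa1 above Tfam in aged fumarate (10.8 and 10.2 CPM per kb) and in aged vehicle (11.1 and 9.80) and Tfam above Opa1 in young cells (13.95 and 10.9). Mff, Mfn1, Nrf1 and Polg lay between 6.25 and 8.78 CPM per kb. The union of all annotated exons is longer than most transcripts, so these values rank genes only roughly.

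In all, 7 lists of other nuclear genes of the pathway held 113 genes with a mean of at least 1 CPM. In aged fumarate over aged vehicle, 0 of the 113 were higher and 7 lower by at least 1.5-fold (median log2 ratio 0.022). In aged vehicle over young, 7 were higher and 3 lower (median −0.071), and in aged fumarate over young 1 was higher and 6 lower (median −0.038). Of all 13750 genes with such a mean, 2.15% were higher and 11.2% lower in aged fumarate over aged vehicle, 16.5% and 6.73% in aged vehicle over young and 10.5% and 6.79% in aged fumarate over young. The pathway counts lie below these shares in each direction, so the genes named from the lists are given as descriptions of single genes, and 106, 103 and 106 of the 113 lay within 1.5-fold in the 3 comparisons.

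Among 17 genes that recruit or regulate DRP1, 0 were higher and 2 lower with fumarate over vehicle, and the same 2 were the only ones past the limit in aged vehicle over young, where both were higher. Mtfr1l, a member of the mitochondrial fission regulator family, was at 32.8 CPM in aged fumarate, 57.5 CPM in aged vehicle and 28.9 CPM in young cells. Inf2, a formin that builds actin at fission sites, was at 77.9, 129.5 and 76.5 CPM in the same order. For both genes aged vehicle stood apart from the other libraries, and the comparisons share that library, which also had the highest summed erythroid and platelet markers (1410 CPM, against 180.3 CPM in aged fumarate and 12.7 CPM in young cells). The DRP1 adaptors Mief1 and Mief2 were at 61.1 and 13.7 CPM in aged fumarate, 60.9 and 13.6 CPM in aged vehicle and 62.3 and 10.4 CPM in young cells. Mtfp1, an inner membrane fission protein, was at 5.20, 7.36 and 5.56 CPM in aged fumarate, aged vehicle and young cells.

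Of 8 outer membrane fusion and transport genes, Miga2, which promotes fusion through mitochondrial lipids, was at 10.9 CPM in aged fumarate, 17.4 CPM in aged vehicle and 10.7 CPM in young cells, lower with fumarate over vehicle and higher in aged vehicle over young. Fundc2 was at 24.2, 38.5 and 42.7 CPM, lower in aged fumarate than in both other libraries. Of the 16 genes of OPA1 processing and the inner membrane scaffold, Chchd6, a cristae junction protein, was the only one past 1.5-fold, at 8.66 CPM in aged fumarate against 14.3 CPM in aged vehicle and 13.7 CPM in young cells. The OPA1 proteases stayed within 1.5-fold, with Oma1 at 19.0, 15.0 and 20.8 CPM and Yme1l1 at 182, 172 and 186 CPM in aged fumarate, aged vehicle and young cells.

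**Figure D4:**
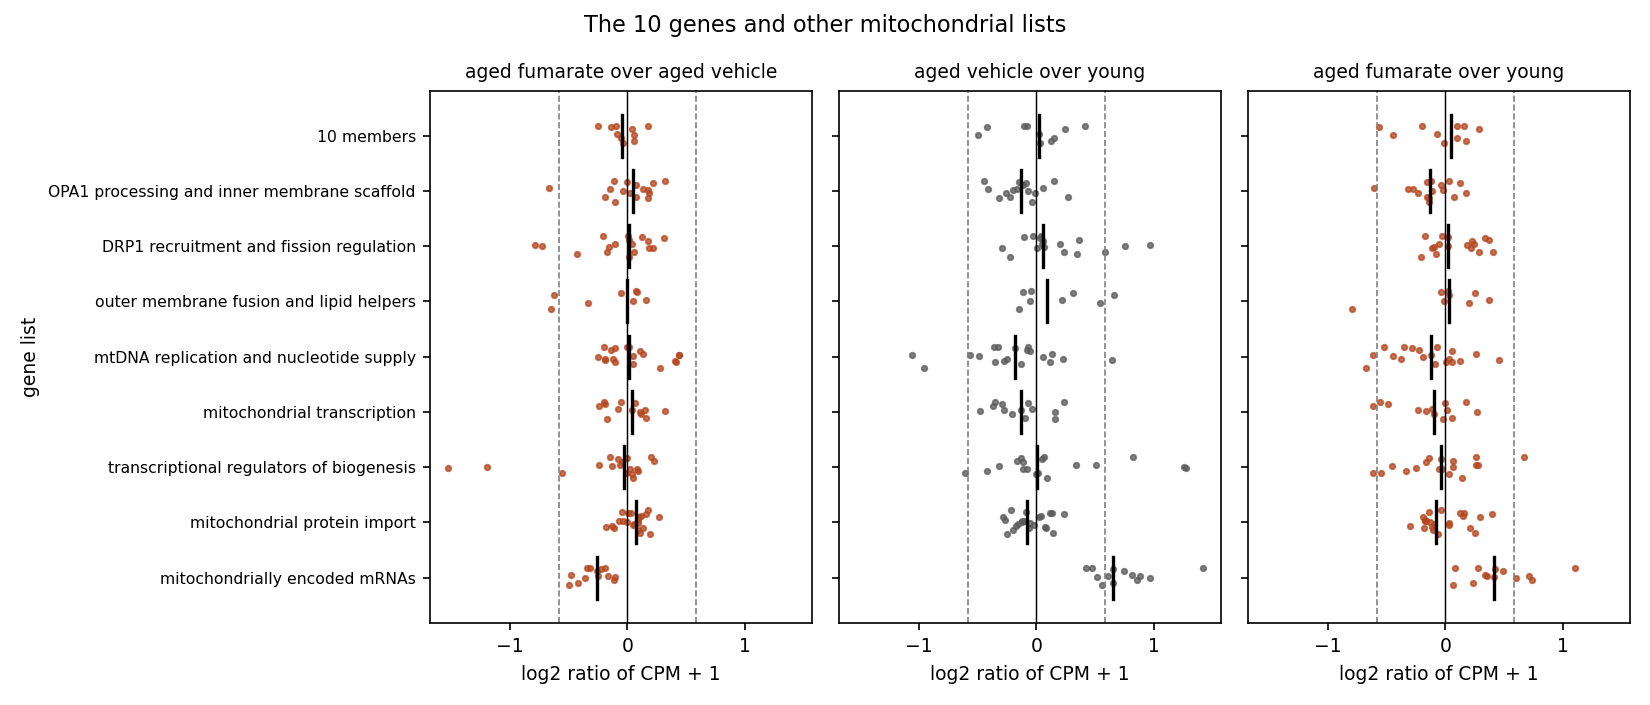
Log2 ratio of CPM + 1 for the 10 members, the 7 nuclear lists and the 13 mitochondrially encoded mRNAs in aged fumarate over aged vehicle, aged vehicle over young and aged fumarate over young; each dot is a gene, black bars are medians and dashed lines 1.5-fold. The mitochondrially encoded mRNAs have medians of −0.26, 0.66 and 0.41, while the nuclear lists have medians between −0.18 and 0.086.

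Of 19 genes of mitochondrial DNA replication and nucleotide supply, 1 was higher and 2 lower in aged vehicle over young (median −0.18), 0 and 2 in aged fumarate over young (median −0.12) and 0 and 0 between the aged libraries (median 0.016), counts too small to set apart from the shares of all genes given above. Lonp1, the matrix protease that degrades TFAM not bound to DNA, was at 273 CPM in aged fumarate, 225 CPM in aged vehicle and 437.5 CPM in young cells. Both aged libraries were below the young one, with log2 ratios of −0.68 (−0.73 to −0.63) and −0.95 (−1.01 to −0.91). Endog, a mitochondrial nuclease, was at 14.7, 10.6 and 23.1 CPM, again lowest in aged vehicle, and Mpv17, an inner membrane protein needed to keep mitochondrial DNA, was at 16.7, 19.2 and 11.9 CPM. Polg2, the accessory subunit of the polymerase, was at 5.63, 6.60 and 8.52 CPM and the helicase gene Twnk at 25.4, 28.2 and 29.95 CPM in aged fumarate, aged vehicle and young cells, both within 1.5-fold on the CPM + 1 scale. As a plain ratio of CPM, Polg2 in aged fumarate over young lay just past it.

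Of 13 mitochondrial transcription genes, 1 passed the limit in 1 comparison. This was Tfb1m, a methyltransferase of mitochondrial ribosomal RNA, at 8.16 CPM in aged fumarate, 9.85 CPM in aged vehicle and 13.1 CPM in young cells, lower in aged fumarate over young. The polymerase gene Polrmt was at 39.9, 41.6 and 35.2 CPM and its partner Tfb2m at 21.9, 24.9 and 22.2 CPM. The list's medians were 0.038 for aged fumarate over aged vehicle, −0.13 for aged vehicle over young and −0.097 for aged fumarate over young. None of 22 protein import genes passed 1.5-fold in any comparison, with medians of 0.070, −0.077 and −0.084.

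Among 18 transcriptional regulators of biogenesis, 3 were higher and 1 lower in aged vehicle over young, which is near the shares of 16.5% and 6.73% among all genes. Esrra, the estrogen-related receptor alpha that works with PGC-1 coactivators, was at 39.5 CPM in aged fumarate, 44.0 CPM in aged vehicle and 24.5 CPM in young cells, above young in both aged libraries. Creb1, a transcription factor of cyclic AMP signalling, was at 43.2, 43.6 and 66.7 CPM, below young in both. Pparg and Prkaa2 were low genes that stood out in aged vehicle, at 0.577 and 0.289 CPM in aged fumarate, 2.61 and 2.72 CPM in aged vehicle and 0.512 and 0.537 CPM in young cells. The PGC-1 related coactivator Pprc1 was at 149, 130 and 124 CPM in aged fumarate, aged vehicle and young cells. Ppargc1a was not analysed here.

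Among the pathway lists, the mRNAs encoded in mitochondrial DNA had the most genes past 1.5-fold in each aged library over the young one. All 13 mitochondrially encoded mRNAs summed to 15240 CPM in aged fumarate, 18310 CPM in aged vehicle and 11640 CPM in young cells. In aged vehicle over young, 9 of 13 were at least 1.5-fold higher and 0 lower (median 0.66), against 16.5% of all genes higher, beside a log2 ratio of −0.50 for Tfam, within the limit. In aged fumarate over young, 4 were higher and 0 lower (median 0.41), against 10.5% of all genes higher, beside −0.45 for Tfam, and mt-Nd3 was at 0.060 with an interval that included no difference (−0.028 to 0.15). In aged fumarate over aged vehicle all 13 lay within 1.5-fold, with ratios from −0.50 to −0.11 (median −0.26), beside 0.051 for Tfam. The 13 genes lie together in mitochondrial DNA and are not independent, so their counts describe a shared shift and cannot be weighed against separate genes. Aged vehicle, highest here, also had the highest summed erythroid and platelet markers. These were at 1410 CPM, against 180.3 CPM in aged fumarate and 12.7 CPM in young cells, and their part was not tested. The counts of mitochondrially encoded mRNAs moved with the scaling. With upper-quartile scaling 6 of them were higher in aged vehicle over young, and with T cell identity scaling 13, while 3 were higher in aged fumarate over young with either. In aged fumarate over aged vehicle, 5 were lower with T cell identity scaling and 0 with upper-quartile scaling. The largest ratios in aged vehicle over young were those of mt-Nd4l, a complex I subunit, at 67.4 CPM in aged fumarate, 84.4 CPM in aged vehicle and 30.9 CPM in young cells, and of mt-Atp8, a subunit of ATP synthase, at 132, 170 and 86.5 CPM. mRNA levels alone were measured, so neither mitochondrial DNA copies nor the shape of the organelle is known from these libraries.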

How the data were processed

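The values are CPM in the table the authors deposited as raw counts: each of its 3 columns sums to 1000000. The tools named in the submitters' processing notes are Partek and STAR, with build mm10. Their versions, the annotation release, the use of strand and any filter are not stated. Per the labels' protocols, 500 ng of total RNA went into each library. Low values repeat at the worth of 1 read, which gave the depths. Only 57.8% to 67.6% of values lay within 0.02 reads of a whole number, so no count model was fitted to test differences. The counting intervals still treat estimated reads, rounded to whole numbers, as counts, and are approximate for that reason. The limit that a count of 0 allows is 3 reads, which corresponds to 0.217 CPM for aged fumarate, 0.174 CPM for aged vehicle and 0.0732 CPM for young cells. Each library's title gave its group.

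Ratios are log2 of CPM + 1 with a limit of 1.5-fold. Exact 95% Poisson and Clopper-Pearson intervals on estimated reads cover counting error only. The calculation was run on simulated whole reads, which checks the code and not how well the intervals suit these data. Reads are not independent molecules. The members, gene lists and tests were chosen with earlier results of these data known. Named genes are the members, up to 3 genes past 1.5-fold with the largest ratio per list and comparison, and 12 chosen regulators, of which 11 were analysed. Markers listed at 0, Il4ra, Ctss, Ptprc, mt-Nd3 and the genes that share exon bases with members were named after their values were seen. The marker lists were summed over all listed genes, apart from an erythroid marker that is not reported here, and other lists counted from a mean of 1 CPM. Gene ends were taken 1 base before the table's stop, after which all 10 members had their GENCODE M21 position. Promoters are from RefSeq (GRCm38.p6). Alternatives were added constants of 0.1 and 5 CPM, trimmed mean of M values (TMM, trims of 30% and 5%), median-of-ratios, upper-quartile and T cell identity scaling, a total without mitochondrially encoded, ribosomal protein, receptor and immunoglobulin genes, a 2-fold limit, a mean of at least 10 CPM and levels per kb of exon. Software was matplotlib 3.10.9, scipy 1.17.1, pandas 2.3.3, numpy 2.4.6 and Python 3.11.15.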

Additional observations from a re-analysis of the deposited data

How the results depend on the processing

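No paired analysis was possible because each group had 1 library, which also leaves no library to be left out. Of 30 log2 ratios (10 members, 3 comparisons), 20 kept their sign under each alternative scaling and 10 changed it in at least 1 of them. The added constants and the minimum level cannot change a sign, so they were no test of it. The largest of the 10 ratios that changed sign was 0.173 in size. T cell identity scaling moved the median of all genes by −0.212 for aged fumarate over aged vehicle and by 0.161 for aged vehicle over young. With it the members' medians were −0.299 and 0.227, and −0.0069 for aged fumarate over young, 1 member was past 1.5-fold upward in aged vehicle over young (Mfn1, 0.612) and 1 downward in aged fumarate over young (Ppargc1b, −0.598), against 21.5% of all genes upward and 6.75% downward, and 5 mitochondrially encoded mRNAs were lower in aged fumarate over aged vehicle. With 0.1 CPM added, 1 member was lower in aged fumarate over young. The members' medians for aged fumarate over aged vehicle were −0.0050 with TMM and 0.022 with upper-quartile scaling. For aged vehicle over young they were −0.028 with TMM, −0.021 with median-of-ratios and −0.060 with upper-quartile scaling, and for aged fumarate over young the median was 0.097 with a mean of at least 10 CPM. At 1.3-fold, chosen after seeing the data, 1 member was higher and 2 lower in aged vehicle over young and 2 lower in aged fumarate over young.

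The settings on the other pathway genes were also chosen after seeing the data. With 5 CPM added, 2 nuclear genes were lower in aged fumarate over aged vehicle, 3 higher in aged vehicle over young and 2 lower in aged fumarate over young. At 2-fold, 2 nuclear genes were lower in aged fumarate over aged vehicle, 2 higher and 1 lower in aged vehicle over young and 0 either way in aged fumarate over young, with 1 mitochondrially encoded mRNA higher in aged vehicle over young and 1 in aged fumarate over young. Per kb of exon, the Mfn2 to Mfn1 ratio was 2.46, 2.00 and 2.26 in aged fumarate, aged vehicle and young cells, the Opa1 to Dnm1l ratio 0.530, 0.525 and 0.572 and the summed fusion to fission ratio 0.582, 0.569 and 0.486. The depth limits Ppargc1b most, with 38 estimated reads in the aged fumarate library.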
